A study of Homo sapiens and Mus musculus with 20 samples.

Results

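The casein cluster on chromosome 4 was taken as the gene bodies of CSN1S1, CSN2, CSN3, HTN1, HTN3, STATH and ODAM with 100 kb added on each side. The 7 genes lie close enough that these pieces merged into 1 interval, chr4:70696786-71217191 of GRCh37 (hg19), 520406 bp long. Satb1 occupancy was read from 5 ChIP-seq peak lists of MCF10A cells and accessibility from 2 ATAC-seq peak lists of the same line. Peaks of the 5 ChIP lists that shared at least 1 bp were merged into sites. The cluster held 39 of the 76660 sites in the genome, and the sites are numbered here from 1 to 39 by position.

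MCF10A is a human mammary epithelial line that lacks native Satb1. Each ChIP list came from cells with a stably integrated, cumate-inducible transgene coding for a C-terminal eGFP fusion. The study names an antibody to GFP and an antibody to Satb1 for its genomic work, and its text does not assign them list by list. FL is full-length Satb1, dHD lacks the homeodomain, and N-C1 keeps the N-terminal domain and CUT1 only. CP and ICRF are cells with full-length Satb1 that received camptothecin or ICRF-193 for 2 h before fixation. The lines with different constructs were sorted through 1 fluorescence gate, so they are transduced populations matched for eGFP. Native ATAC is MCF10A without the transgene, and Satb1 ATAC is MCF10A expressing Satb1. With 1 list for each condition there was no spread between replicates to compare a difference with, and the comparisons carry no test.

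Caseins are the main proteins of milk. CSN1S1 codes for alpha-S1-casein, CSN2 for beta-casein and CSN3 for kappa-casein, which stabilizes the casein micelle. HTN1 and HTN3 code for histatins and STATH for statherin, small secreted proteins of saliva, and ODAM codes for a protein made by the ameloblasts of the tooth. All belong to a family of secretory calcium-binding phosphoproteins whose genes stand side by side, and the caseins are expressed in the lactating mammary gland. Satb1 is a genome organizer that binds A/T-rich DNA through CUT1, CUT2 and a homeodomain. Camptothecin inhibits topoisomerase I and ICRF-193 inhibits topoisomerase II.

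The sequences of a few sites show what was bound. The consensus searched was YTAWTAR, in which Y stands for C/T, W for A/T and R for A/G. It is its own reverse complement as a pattern, so a search of 1 strand finds the matches of both. In the lines that follow, capitals mark exact matches to it, and all sequences are the plus strand of GRCh37. Site 37 (chr4:71176227-71176526) held the most matches, 6 in 400 bp, of which 5 fall in the 300 bp shown. Site 26 (chr4:71014409-71014608) held the most matches among sites of the FL list, a tie with site 25. Site 23 (chr4:70998198-70998397) carried the highest N-C1 enrichment of the cluster. The group at chr4:70772324-70772473 holds 4 matches in 150 bp and lay in no ChIP list.
site 37: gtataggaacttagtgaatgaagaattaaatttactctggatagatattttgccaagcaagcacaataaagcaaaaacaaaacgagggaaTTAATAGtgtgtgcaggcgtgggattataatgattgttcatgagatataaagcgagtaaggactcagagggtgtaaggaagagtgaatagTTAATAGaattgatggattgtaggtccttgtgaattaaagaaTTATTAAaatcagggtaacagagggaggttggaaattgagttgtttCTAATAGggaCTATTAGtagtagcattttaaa
site 26: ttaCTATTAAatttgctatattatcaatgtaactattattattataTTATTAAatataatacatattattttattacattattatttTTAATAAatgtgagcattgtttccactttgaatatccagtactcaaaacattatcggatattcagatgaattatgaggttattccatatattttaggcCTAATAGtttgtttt
site 23: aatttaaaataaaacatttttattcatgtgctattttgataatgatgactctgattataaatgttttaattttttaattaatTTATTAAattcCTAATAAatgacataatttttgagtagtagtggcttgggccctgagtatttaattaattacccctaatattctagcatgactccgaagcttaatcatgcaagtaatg
group without a peak: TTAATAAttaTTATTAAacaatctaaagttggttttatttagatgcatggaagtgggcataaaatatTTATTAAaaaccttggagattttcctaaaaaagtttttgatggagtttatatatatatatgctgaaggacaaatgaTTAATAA

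The site nearest to the start of CSN2, site 10, was also the FL site with the highest enrichment, and site 28 had the highest enrichment of the CP and ICRF lists. Neither window below holds an exact match. Capitals here mark the shared core of the consensus, TAWTA, which is also its own reverse complement. Site 10 is shown over chr4:70830328-70830627 with 8 cores and site 28 over chr4:71042105-71042304 with 3. The core was looked at after the values were seen.
site 10: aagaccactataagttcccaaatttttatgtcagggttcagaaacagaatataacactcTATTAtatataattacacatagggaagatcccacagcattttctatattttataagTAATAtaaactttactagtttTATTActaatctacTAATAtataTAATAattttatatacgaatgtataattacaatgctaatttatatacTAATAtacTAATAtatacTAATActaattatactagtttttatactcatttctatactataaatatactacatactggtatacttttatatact
site 28: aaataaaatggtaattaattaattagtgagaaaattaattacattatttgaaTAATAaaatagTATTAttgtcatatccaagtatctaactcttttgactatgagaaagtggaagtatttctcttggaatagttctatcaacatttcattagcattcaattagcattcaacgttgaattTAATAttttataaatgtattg

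Satb1 peaks were denser in the cluster than in the genome in all 5 ChIP lists. The FL list placed 8 of its 22877 peaks in the cluster, 15.4 per Mb against 10.4 on chromosome 4 and 8.003 in the genome. The dHD list had 19 of 50537, or 36.5 per Mb against 23.2 and 17.7. N-C1 had 30 of 62856, or 57.6 per Mb against 29.3 and 22.0. The CP list had 6 of 24475, or 11.5 per Mb, just under the 12.1 of chromosome 4 and above the 8.56 of the genome. ICRF had 20 of 37350, or 38.4 per Mb against 18.9 and 13.1. The cluster was itself richer in A/T (65.3%) than chromosome 4 (61.8%) or the genome (59.1%), and held 1218 consensus matches per Mb against 988 and 818. The part that this composition has in the densities was not tested. The study states a range of reads for its ChIP libraries as a whole but no depth for each list, so peak numbers do not measure binding across lists, and a site without a peak in some list may still be bound below its threshold.

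**Figure D1:**
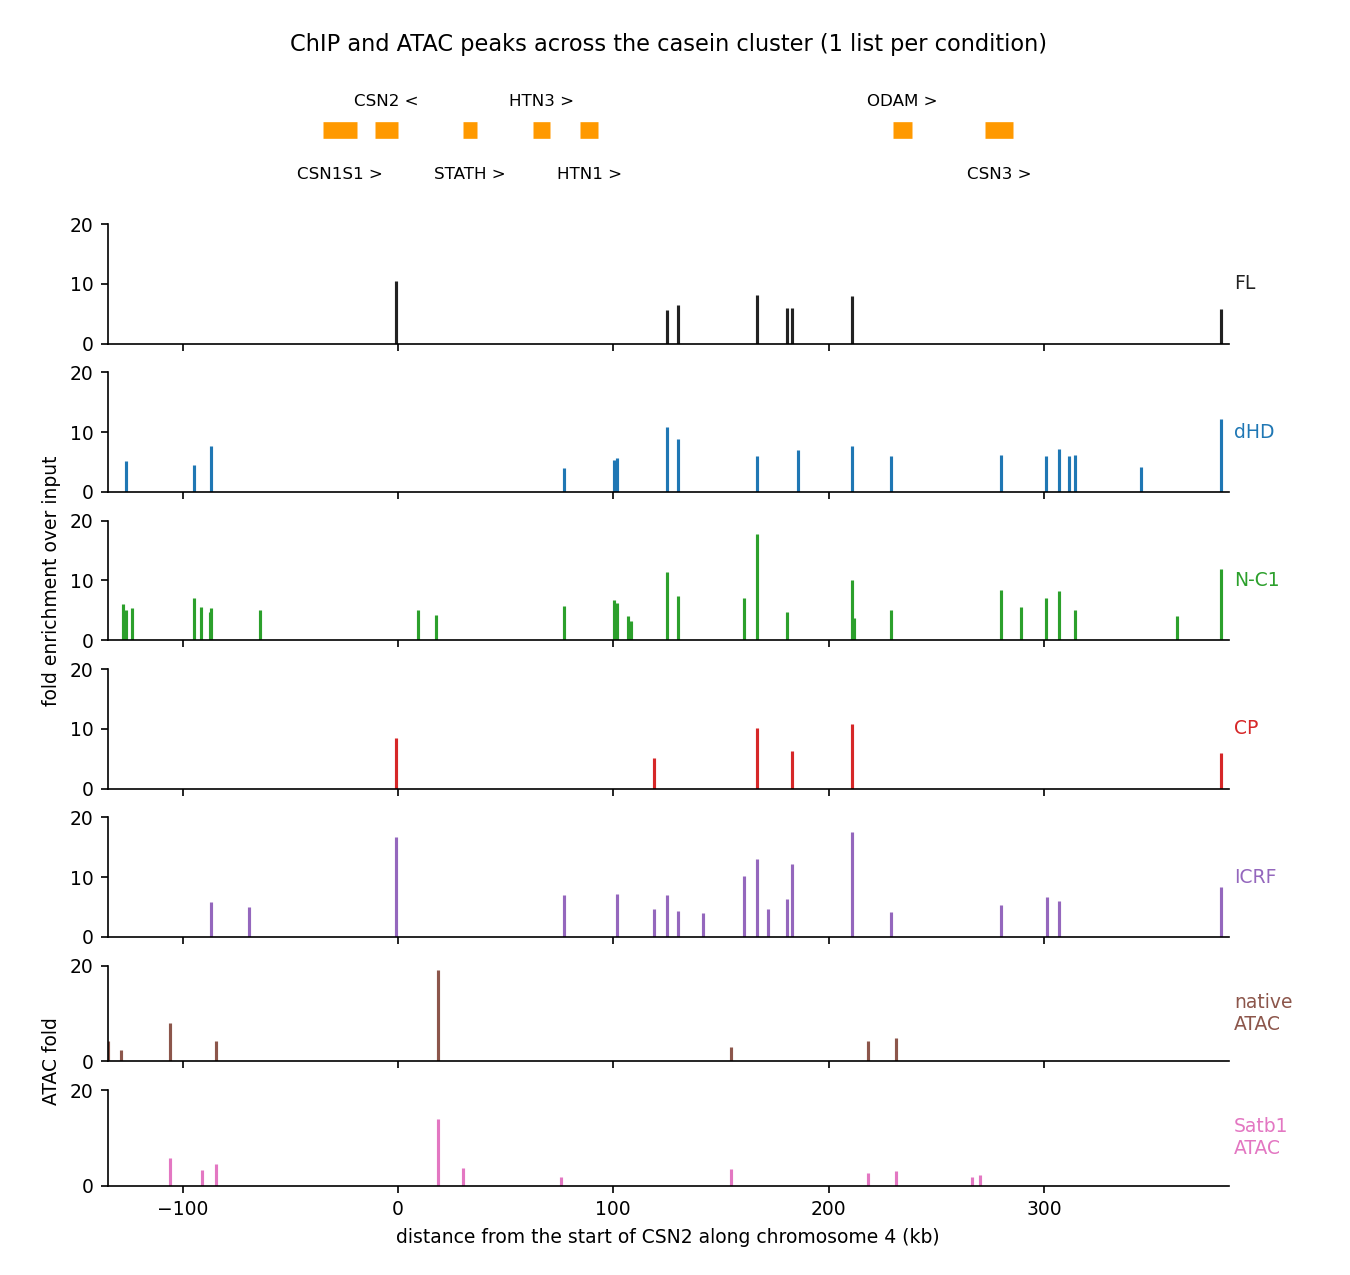
Peaks of the 5 ChIP lists and 2 ATAC lists across the casein cluster, by distance from the start of CSN2 in kb, with the fold enrichment of each peak as the height of its line and the 7 genes as bars with arrows for their strand. The FL list has 8 lines and the N-C1 list 30, and CSN2 and CSN3 are the members whose bodies hold any ChIP line.

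The sites were not spread evenly. The median stretch between neighbouring sites was 6.66 kb, and 3 stretches were longer than 50 kb. The longest, 62.9 kb between sites 9 and 10, contained the whole of CSN1S1. The next, 59.2 kb between sites 12 and 13, contained STATH and HTN3, and the third, 50.6 kb between sites 30 and 31, contained ODAM. HTN1 lay inside a stretch of 22.8 kb. CSN2 and CSN3 were thus the members with a ChIP peak of any list in the gene body. Of the 39 sites, 31 were intergenic by their centre, counting named protein-coding genes. The same share over all sites of the genome is not given here, and the study placed most Satb1 sites in intergenic and intronic DNA. The count is therefore not read as a trait of the cluster. Another 5 lay in introns of PRR27, a proline-rich protein gene between HTN1 and ODAM, by its whole annotated span. None of the 5 was placed in an intron of the canonical PRR27 transcript. The PRR27 start named below is that of the whole span. The remaining sites lay in introns of CSN2, CSN3 and the sulfotransferase gene SULT1E1. Sites 15 to 18 fell within the annotated casein pseudogene CSN1S2AP.

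CSN2, the beta-casein gene, was the member with an FL peak in its body, which makes 1 of 7 members against 20.7% of protein-coding genes. CP also had a peak in 1 of 7 members, CSN2, against 19.6%. The ICRF list had a peak in 2, CSN2 and CSN3, against 25%. For dHD it was 1 of 7, CSN3, against 30.7%, and for N-C1 also CSN3 alone, against 32.6%. Gene bodies differ in length, and the members are between 6605 bp (STATH) and 15507 bp (CSN1S1) long. Within 100 kb all 7 members had an FL peak, against 58.8% of protein-coding genes, but these are the same 8 peaks counted for overlapping windows.

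Site 10 (chr4:70830209-70830746) lay in intron 1 of CSN2, its centre 968 bp inside the gene from the start. Its fold enrichment, the ratio over local background that the authors' peak caller gave, was 10.5 in the FL list, higher than 73.9% of that list's peaks. In the CP list it was 8.45 (percentile 67.1) and in the ICRF list 16.7 (percentile 89.3). It had no peak in the dHD or N-C1 list. The site was thus a mid to high peak of all 3 full-length lists and was called with neither shortened construct. The nearest N-C1 peak to the CSN2 start was 9300 bp away, at site 11, and the nearest dHD peak 76833 bp away.

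Site 26 (chr4:71014254-71014764), in an intron of PRR27, had the same pattern. Its enrichment was 5.96 in FL (percentile 27.3), 6.28 in CP (percentile 44.3) and 12.2 in ICRF (percentile 81.2). Together with site 10 it gave 2 of 8 FL peaks that overlapped neither a dHD nor an N-C1 peak (25%, exact 95% interval 3.19 to 65.1). Over all FL peaks that share was 4.1%. Of 8 peaks, 2 is a small count, and the interval reaches down below the genome's value.

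Site 25 (chr4:71012046-71012468), also in an intron of PRR27 and 1785 bp before site 26, had an N-C1 peak in place of a CP peak. It had 5.96 in FL, the same value as at site 26, with 4.65 in N-C1 (percentile 19.0) and 6.36 in ICRF (percentile 43.1). No dHD peak was called there. The remaining 5 FL sites all had peaks in both shortened constructs.

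The 3 sites held in common by all 5 lists were 23, 28 and 39. Site 23 (chr4:70998061-70998534), 1035 bp upstream of the PRR27 start, had 8.15 in FL, 5.94 in dHD and 17.8 in N-C1. With the drugs it had 10.1 in CP and 12.99 in ICRF. In N-C1 it stood at percentile 92.8 of its list, while in dHD it stood at 40.3, so the shortened constructs ranked this site differently. At site 28 (chr4:71041900-71042509) the values were 8.01 in FL, 7.64 in dHD, 10.0 in N-C1, 10.8 in CP and 17.5 in ICRF. This site lies in PRR27 close to its 3' end, 19237 bp upstream of the start of ODAM, and it ranked at percentile 90.2 in ICRF. Site 39 (chr4:71213272-71213833), the last of the cluster and 109454 bp beyond the CSN3 start, had 5.82 in FL, 5.92 in CP and 8.31 in ICRF. In dHD it had 12.2 and in N-C1 11.9, the highest dHD value of the cluster. Across the genome 21% of sites held a peak of all 5 lists, against 3 of 39 here (7.69%, 1.62 to 20.9).

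Sites 19 and 20 lay between HTN1 and PRR27 and had no peak in the CP list. Site 19 (chr4:70956124-70956643) had 5.54 in FL, the lowest FL value of the cluster, and 6.94 in ICRF. Its shortened-construct values stood higher in their lists, 10.9 in dHD (percentile 82.3) and 11.4 in N-C1 (percentile 84.2), against percentile 18.1 in FL. Site 20 (chr4:70961435-70961972) had 6.50 in FL, 8.77 in dHD, 7.43 in N-C1 and 4.41 in ICRF. Both sites therefore ranked higher in the lists of the shortened proteins than in the FL list. The same held for the medians over all shared peaks of the genome, at percentile 50.01 in FL against 78.3 in dHD and 82.3 in N-C1. Most FL peaks were shared (88.6% with dHD, 95.2% with N-C1), which holds the FL median near 50. The FL list is also shorter, with 22877 peaks against 50537 in dHD and 62856 in N-C1. A longer list with more weak peaks can give the same site a higher percentile, so these ranks do not compare binding.

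**Figure D2:**
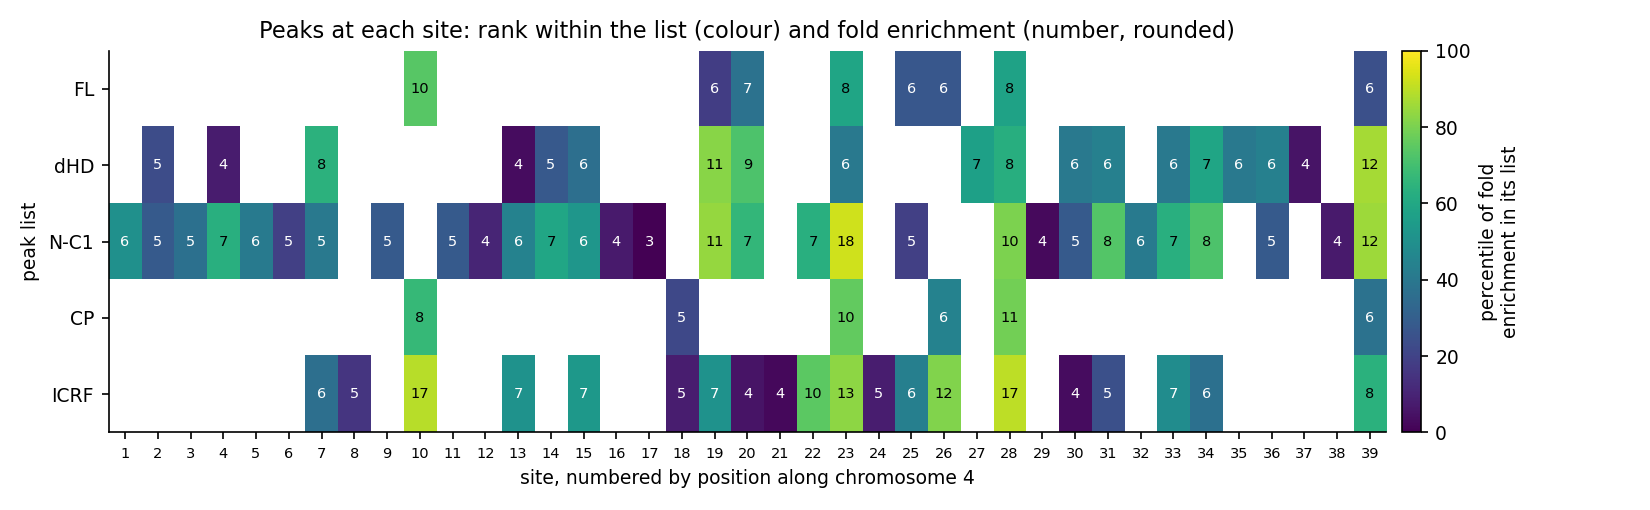
Peaks at each of the 39 sites (columns, by position) in the 5 ChIP lists (lines of cells), coloured by the percentile of the fold enrichment within its own list, with the rounded fold enrichment as the number, and blank where the list has no peak. Sites 10 and 26 are filled in FL, CP and ICRF and blank in dHD and N-C1, and sites 23, 28 and 39 are filled in all 5.

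Sites called with the shortened constructs alone were about as frequent in the cluster as in the genome. An FL peak was present at 8 of 39 sites (20.5%, 9.30 to 36.5), against 29.6% of sites in the genome. A dHD peak was present at 19 (48.7%, 32.4 to 65.2) against 65.8%, and an N-C1 peak at 30 (76.9%, 60.7 to 88.9) against 81.5%. Sites of the N-C1 list alone were the most frequent pattern, 12 of 39 (30.8%, 17.0 to 47.6) against 20.8%. Sites of dHD, N-C1 or both with no full-length list numbered 19 (48.7%) against 47.9%. Sites of FL, CP or ICRF with neither shortened construct numbered 6 (15.4%, 5.86 to 30.5) against 7.07%. Among these, only sites 10 and 26 had an FL peak. The intervals cover counting error only, and neighbouring sites are not independent.

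Of the FL peaks, 5 of 8 overlapped a dHD peak (62.5%, 24.5 to 91.5) against 88.6% over the whole list. For N-C1 it was 6 of 8 (75%, 34.9 to 96.8) against 95.2%. In the other direction, 5 of 19 dHD peaks (26.3%, 9.15 to 51.2) overlapped an FL peak against 39.9%, and 6 of 30 N-C1 peaks (20%, 7.71 to 38.6) against 34.6%. All 4 shares were lower here than genome-wide, but the exact 95% interval of each includes the genome's value. The shortened constructs were also set against each other. Of the dHD peaks 16 of 19 (84.2%, 60.4 to 96.6) overlapped an N-C1 peak, against 82.6%, and 16 of 30 N-C1 peaks (53.3%, 34.3 to 71.7) overlapped a dHD peak, against 66.9%. At the 5 FL peaks shared with dHD the median enrichment was 6.50 in FL and 8.77 in dHD, and over all such peaks in the genome 7.33 and 9.91.

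Topoisomerase inhibitors were compared with the untreated FL list. Every FL peak of the cluster had an ICRF peak, 8 of 8 (100%, 63.1 to 100), against 92.9% over the whole FL list. With CP it was 5 of 8 (62.5%, 24.5 to 91.5) against 81.7%, the missing sites being 19, 20 and 25. Of the CP peaks 5 of 6 (83.3%) overlapped an FL peak, against 76.1%, and of the ICRF peaks 8 of 20 (40%, 19.1 to 63.9), against 56.7%. A CP peak was present at 6 of the 39 sites (15.4%, 5.86 to 30.5), against 31.7%, and an ICRF peak at 20 (51.3%, 34.8 to 67.6), against 48.5%.

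ICRF peaks without an FL peak stood at 12 of the 39 sites (30.8%, 17.0 to 47.6), against 21% of sites in the genome. At 7 of the 12, both dHD and N-C1 also had a peak, as at site 13 upstream of HTN1, site 30 upstream of ODAM and site 31 in CSN3. Of the 16081 such sites in the genome, 5403 had peaks of dHD, N-C1 and ICRF only, and 2802 had a CP peak as well. Peaks of both shortened constructs were thus common at such sites in the genome too. Sites 8, 21 and 24 were in the ICRF list alone, with values between 4.02 and 4.99, all under percentile 16 of that list. Site 18 (chr4:70950072-70950579), in the casein pseudogene, was in CP with 5.19 and ICRF with 4.60 and in no other list. At the 8 FL peaks the median enrichment was 6.23 in FL and 10.3 in ICRF, and the medians of the percentile within each list were 32.6 and 72.6. Over all shared peaks of the genome these percentiles were 53.1 and 70.8. The ICRF list is longer, with 37350 peaks against 22877 in FL, so these percentiles do not compare binding. Because every list has its own background, the enrichments stand side by side without a ratio between lists.

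The sites were A/T rich, with a mean number of consensus matches near that of all sites in the genome. Counting exact matches to YTAWTAR in 400 bp, 35 of 39 sites (89.7%, 75.8 to 97.1) had at least 1, against 93.7% of sites in the genome. The mean was 2.05 (SD 1.26 over 39 sites) against 2.19 (SD 1.295) in the genome. Sites 3, 14, 27 and 28 had 0 matches. Sites of the FL list averaged 2.38 (SD 1.41, 8 sites) and the other sites 1.97 (SD 1.22, 31 sites). In the genome these means were 2.73 and 1.95. Of the 45 pairs of neighbouring matches, 3 lay 8 to 12 bp apart (6.67%, against 8.69% at all sites of the genome), close to 1 turn of the double helix, at sites 1, 23 and 37.

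Enrichment and match number did not go together at the ends of the range. Site 37, with the most matches of the cluster, was in the dHD list alone, with 4.24 (percentile 5.35), and its A/T content of 62.5% was below its flanks by 0.2 percentage points. Site 10, the highest FL site, had 1 match, which lay outside the 300 bp printed above. Site 28, the highest of CP and ICRF, had 0 in 400 bp and 3 in its whole interval of 610 bp.

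**Figure D3:**
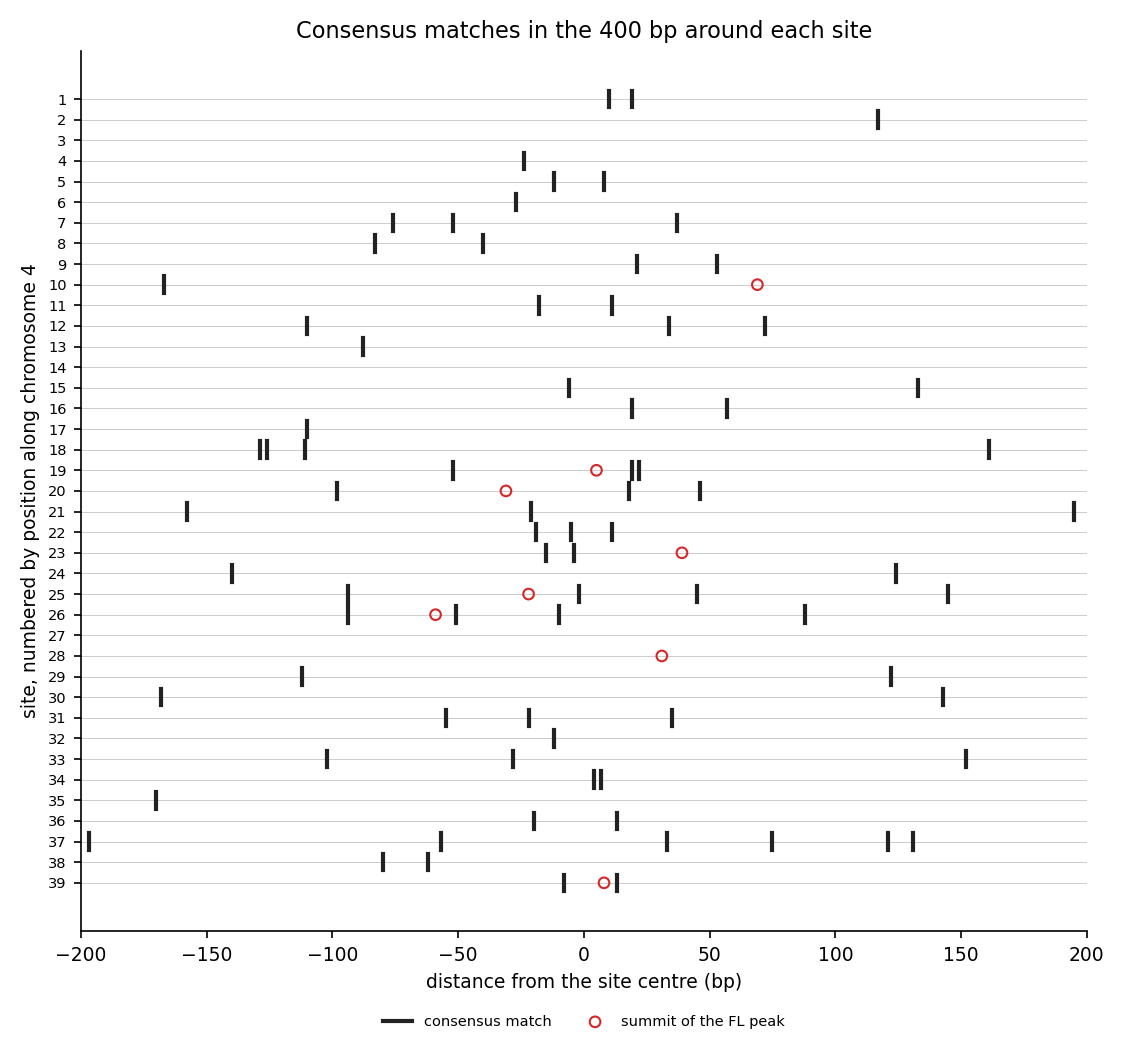
Positions of exact consensus matches (black marks) within 400 bp of the centre of each site, with the summit of the FL peak as a red circle where the FL list has a peak. Site 37 has 6 marks, sites 3, 14, 27 and 28 have none, and the circle of site 10 stands far from the single mark of that site.

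Both of these last sites lay in very A/T-rich DNA. Over 200 bp, site 10 was 82.5% A/T, the highest of the 39, and exceeded its own flanks, 1000 to 2000 bp away, by 19.9 percentage points, also the largest difference. Its 400 bp held 9 cores TAWTA, a number that 11.4% of sites in the genome reached, and 3 of them stood in the run CTAATAT, which is no match to the consensus. Site 28 was 78% A/T with flanks at 66.4%, and held 6 cores, a number that 45.1% of sites in the genome reached. Its longest stretch with only A, T and C on 1 strand, a measure also added after the values were seen, was 77 bp, the longest of the cluster, where the median over sites was 36 bp here and 34 bp in the genome. DNA with A, T and C mixed on 1 strand is the kind of sequence Satb1 was first known to bind. The measure gives only the length of a stretch, not how mixed its bases are. Any part of that stretch in the peaks of site 28 was not tested. Sites 25 and 26 each held 13 cores, reached by 2.23% of sites in the genome. Sites without an FL peak also held many, 12 at site 24 (reached by 3.09%) and 11 at site 15 (4.50%). Site 39, with an FL peak, held 3 (92.0%).

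On average the sites were 72.6% A/T (SD 4.66 over 39 sites) and their flanks 65.2% (SD 2.76), a difference of 7.36 percentage points (SD 4.71). In the genome the means were 70.9% and 62.7%, and the difference was 8.198. The site exceeded its flanks at 37 of 39 sites (94.9%, 82.7 to 99.4), against 91.5% in the genome, the exceptions being sites 2 and 37. Sites of the FL list had 75.6% (SD 4.40, 8 sites) and the others 71.8% (SD 4.48, 31 sites), where the genome had 72.1% and 70.4%. The 6 sites of full-length lists with neither shortened construct had 78.4% (SD 3.43) and exceeded their flanks by 12.2 points (SD 5.26). Of these 6, sites 10 and 26 had an FL peak, and sites 8, 18, 21 and 24 had peaks only in the lists of drug-treated cells. The 19 sites of shortened constructs alone had 70.0% (SD 4.44) and exceeded their flanks by 5.18 points (SD 4.06). The same classes in the genome had 77.8% and 68.9%, so the order of the classes was the same.

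**Figure D4:**
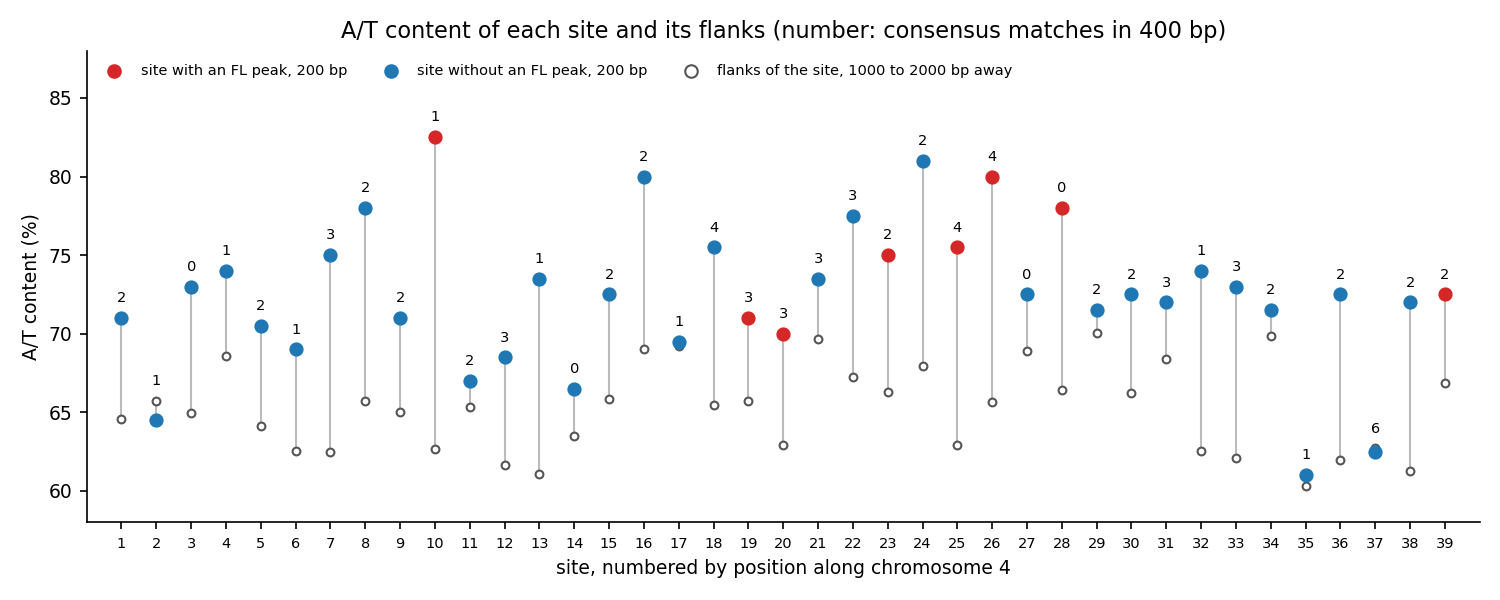
A/T content of each site over 200 bp (filled, red with an FL peak and blue without) and of its flanks 1000 to 2000 bp away (open), in percent, with the number of consensus matches in 400 bp above each. Site 10 is the highest at 82.5%, and site 37 has the most matches, 6, at 62.5%.

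**Figure D5:**
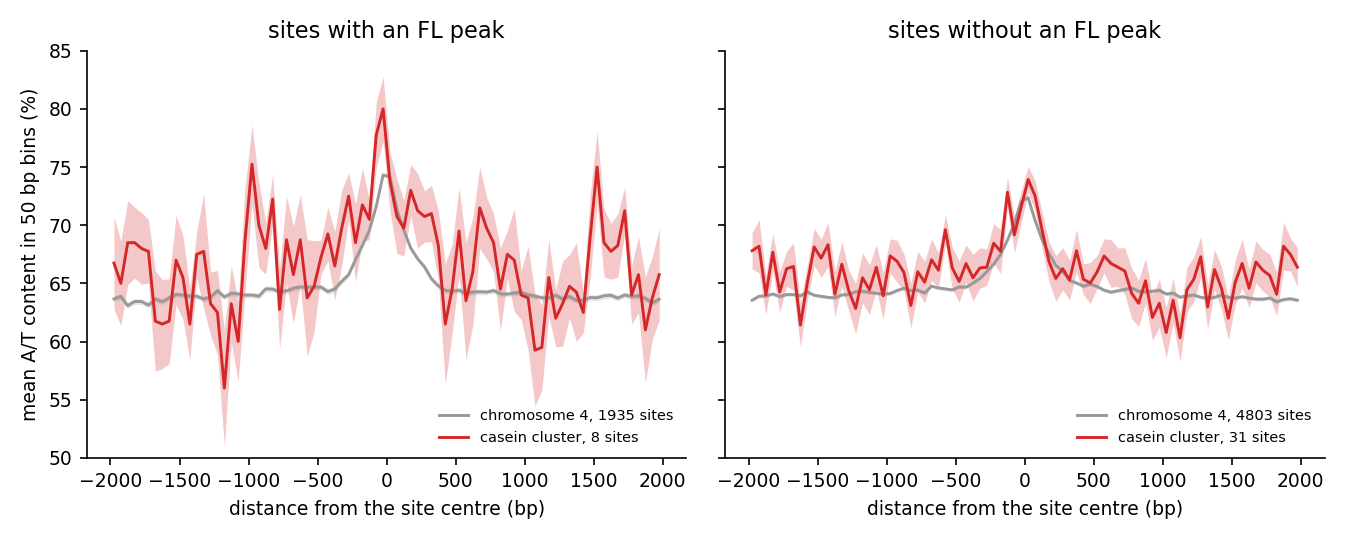
Mean A/T content in bins of 50 bp by distance from the site centre in bp, for sites with an FL peak (left) and without (right), in the casein cluster (red) and on chromosome 4 (grey), with bands of 1 standard error over sites. Both cluster curves peak at the centre, and the curve of the 8 FL sites has the wider band.

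Most consensus matches of the cluster lay outside any peak. Of 634 matches, 17 lay in FL peaks (2.68%), against 3.01% on chromosome 4 and 2.71% in the genome. In N-C1 peaks lay 60 (9.46%) against 6.90% and 6.06%, and in peaks of any list 87 (13.7%) against 8.80% and 7.65%. Peaks also covered more of the cluster than of the genome, 1.90% against 0.805% for N-C1 and 0.452% against 0.286% for FL. The part of this coverage in the shares of matches, here and for the groups below, was not tested. Matches were also chained into groups with at most 200 bp between neighbours. Of the 341 single matches, 15 touched a ChIP peak (4.40%, against 1.95% on chromosome 4) and 0 an FL peak (against 0.303%). Of the 81 groups of 2, 15 touched a peak (18.5%, against 10.2%) and 2 an FL peak (2.47%, against 2.35%). Of the 33 groups of 3, 10 touched a peak (30.3%, against 28.1%) and 3 an FL peak (9.09%, against 8.81%). Larger groups were few. Both groups of 5 or more touched a peak (against 70.8%), the group at site 26 and the group of 7 at site 37. Of the 5 groups of 4, only the one at site 25 touched a peak (against 45.0%), and the other 4 lay in no list, among them the group printed above, which was 77.5% A/T and lay in the long stretch around CSN1S1.

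The starts of the members had few matches and were seldom near a site. Taking 250 bp before to 50 bp after each start, ODAM had 2 matches and the other 6 members 0, with A/T contents from 62% for HTN1 and HTN3 to 67.7% for CSN3. CSN1S1 lay farthest from any site. Its nearest, site 9 (chr4:70767035-70767289), was 29624 bp upstream and in the N-C1 list alone, with 5.002 (percentile 28.5). For STATH the nearest was site 12 (chr4:70848769-70849076), 12760 bp upstream and in N-C1 alone with 4.31 (percentile 10.5). Neither gene thus had a full-length site within the nearest 30 kb, the FL distances being 33571 bp for CSN1S1 and 30977 bp for STATH.

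HTN3 and HTN1 shared site 13 (chr4:70908264-70908626), which lay downstream of the former and 7710 bp upstream of the latter. It had 4.01 in dHD (percentile 3.29), 5.70 in N-C1 (percentile 44.1) and 6.94 in ICRF (percentile 51.0). ODAM had the closest site to a start after CSN2. Site 30 (chr4:71060261-71060662) was centred 980 bp upstream of it, with 5.94 in dHD, 5.002 in N-C1 and 4.21 in ICRF. No FL or CP peak was called there, and the nearest FL peak, at site 28, was 19018 bp from the ODAM start. In CSN3, site 31 (chr4:71111294-71111699) lay in intron 2, 7398 bp from the start, with 6.13 in dHD, 8.47 in N-C1 and 5.38 in ICRF. The FL peak nearest to the CSN3 start was 61675 bp away. Among the caseins, CSN2 therefore had a peak in the FL, CP and ICRF lists, and CSN3 in the dHD, N-C1 and ICRF lists. The ICRF list is also of full-length Satb1, so both genes were called with it in at least 1 list.

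ATAC peaks were sparse in the cluster. The native list had 8 (15.4 per Mb against 61.6 in the genome), covering 1.73% of the cluster against 5.76% of the genome. The list from cells expressing Satb1 had 11 (21.1 per Mb against 72.1), covering 1.08% against 8.95%. One member of 7, ODAM, had an ATAC peak in its body in the native list, against 88.6% of protein-coding genes, and in the Satb1 list it was again ODAM alone, against 90.8%. That peak lay 1303 bp inside the gene by its centre, with a fold enrichment of 4.86 in the native list and 2.98 in the other.

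No Satb1 site of the cluster overlapped an ATAC peak. In the native list it was 0 of 39, against 4.2% of sites in the genome. In the list from cells expressing Satb1 it was also 0 of 39, against 4.89%. A count of 0 of 39 allows a share of up to 7.69% by the limit of 3 counts, and the exact 95% interval reaches 9.03%. The genome's shares lie under both limits, so a lower share in the cluster was not detectable with 39 sites. The median distance from a site to the nearest ATAC peak was 19808 bp in the native list and 17020 bp in the other. The closest pairs were site 1 with a native peak 42 bp away and site 5 with a peak of the Satb1 list 100 bp away. The strongest accessible region of the cluster, chr4:70849604-70850326, had 19.1 in the native list and 13.9 in the Satb1 list, between CSN2 and STATH. It was 528 bp from site 12 and, at 53.9% A/T, held 0 consensus matches.

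Between the 2 ATAC lists, 7 of 8 native peaks (87.5%, 47.3 to 99.7) overlapped a peak of the Satb1 list, against 88.8%, and 6 of 11 peaks of the latter (54.5%, 23.4 to 83.3) overlapped a native peak, against 70.2%. The 5 peaks listed with Satb1 alone included one at chr4:70861288-70861665, ending 18 bp before the start of STATH, with 3.63 (percentile 60.1). Others lay 2094 bp upstream of CSN3 (2.24), in an intron of FDCSP (1.83) and upstream of HTN1 (1.84), all in the lower part of their list. None of these 5 peaks held a consensus match. Depths of both lists are unknown, so a peak in 1 list only is not shown to be a change.

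Beyond the members, 10 neighbouring genes of the same stretch of chromosome 4 were looked at, FDCSP, CABS1, SMR3A, SMR3B, PROL1, MUC7, AMTN, AMBN, ENAM and IGJ. Most are genes of saliva, tooth enamel or secreted proteins, and IGJ codes for the joining chain of immunoglobulins. Within 100 kb all 10 had a peak in each ChIP list, against 58.8% of protein-coding genes for FL, 75.4% for dHD, 76.5% for N-C1, 54.5% for CP and 65.1% for ICRF. As for the members, these windows overlap and share peaks. FL peaks within 100 kb numbered from 2 (CABS1) to 5 (MUC7 and ENAM). An FL peak lay in the body of 2 of the 10, MUC7 and ENAM, against 1 of 7 members and 20.7% of protein-coding genes. An ATAC peak lay in the body of 7 of the 10 in each list, against 1 of 7 members. Over protein-coding genes the share was 88.6% in the native list and 90.8% in the Satb1 list. The neighbours are from 2136 bp (CABS1) to 52506 bp (MUC7) long, and the members from 6605 to 15507 bp. The part of gene length in these counts was not tested. Among the 10 neighbours, AMTN had the accessible region closest to a start, 117 bp away in the native list.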

How the data were processed

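ChIP-seq and ATAC-seq peak lists of MCF10A cells were used, 1 list per condition, 7 lists from the 20 samples of the series. The other 13 samples were not used here. Per the labels and the study's methods, the authors used cutadapt for trimming and bowtie2 for alignment to hg19. MACS2 then called ChIP peaks over input DNA, and broad ATAC peaks with duplicates kept. The study's text states more than 1 peak threshold. The deposited ChIP lists hold peaks under the stricter FDR, a −log10 q of 2, and under the stated fold enrichment of 5. Their smallest −log10 q was 1.32 and their smallest fold enrichment 1.65. In the locus, 1 of 83 peaks had a −log10 q under 2 and 16 a fold enrichment under 5. All were kept. Versions of bowtie2 and MACS2, and whether duplicate experiments were pooled, are not given in the sources used here. Each deposited peak has a fold enrichment, the ratio of its pileup to the local background. The authors' −log10 p and −log10 q, the latter used here as an alternative threshold, come from MACS2. The deposited lists carry no read counts, so the depth of each list is unknown within the range the study states for its ChIP libraries, which limits their comparison.

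From these, peaks that overlapped the locus by at least 1 bp were taken, peaks of the 5 ChIP lists were merged into sites, and each percentile is the share of that list's peaks with a lower fold enrichment. Matches to YTAWTAR were counted in 400 bp and A/T content in 200 bp at the middle of a site, in the GRCh37 sequence. Peaks lay within the GRCh37 chromosome lengths. Genes came from GENCODE release 44 lifted to GRCh37, where PROL1 and IGJ are OPRPN and JCHAIN. Shares have exact Clopper-Pearson 95% intervals for counting error. Densities were taken per Mb of sequenced bases on chromosomes 1 to 22, X and Y.

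Every FL site, the 2 sites of highest enrichment in each other ChIP list and the site nearest to the start of each member are given in full. Other sites named were chosen after their values were seen, as were the printed sequences of sites 23, 26 and 28 and the group without a peak. The members and lists were chosen with earlier results of these data known. No test was run. Overlap, merging and motif counts were tested on simulated data. Alternatives covered the peak threshold, the flank, the overlap rule, the window and the consensus. Overlaps and intervals were computed with numpy 2.4.6 and scipy 1.17.1 under Python 3.11.15, checked against bedtools 2.31.1, and plotted with matplotlib 3.10.9.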

Additional observations from a re-analysis of the deposited data

How the results depend on the processing

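Of the 48 alternatives run over 17 results, 42 stayed within 1.5 times the count, or within the interval or the SD of the value. Those limits are wide for 8 FL peaks and for single sites. Within them, the share of FL peaks also in dHD was 37.5% in place of 62.5% with a reciprocal overlap of 50%, and the mean number of consensus matches was 1.18 in place of 2.05 in a 150 bp window. At a fold enrichment of at least 5 there were 29 sites in place of 39. With 50 kb on each side, the region covered 384 kb in place of 520 kb. The N-C1 list then had 19 peaks in the cluster in place of 30 and the native ATAC list 4 in place of 8. These counts were not adjusted for the shorter region. In a 150 bp window 66.7% of sites had a consensus match, and 80.5% of sites in the genome. With CTAATAR on either strand the share was 59.0%, and 60.1% in the genome, and the mean number per site was 0.744. With the core TAWTA, chosen after seeing the data, the mean was 5.85, and 5.65 in the genome. The 0 of 39 sites overlapping an ATAC peak held for both ATAC lists with the site centre and with a −log10 q of at least 5. No paired analysis was possible because each condition had 1 list, and for the same reason no replicate could be left out.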
